A study of Mus musculus with 3 samples.

Results

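The family described here is the set of NF-kB subunits and the inhibitors that restrain them in arthritic mouse knee synovium. It holds 10 genes of the 24357 gene symbols measured, taken by name from the matrices: the subunit genes Nfkb1, Nfkb2, Rel, Rela and Relb, and the inhibitor genes Nfkbia, Nfkbie, Nfkbiz, Tnfaip3 and Zfp36. All 10 were detected in all 3 libraries, with 158322, 148377 and 165104 unique molecular identifiers (UMIs, 1 per captured mRNA molecule) in replicates 1, 2 and 3.

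The synovium came from female wild type C57BL/6 mice, 8 weeks of age, in the C&AIA model, an arthritis induced by collagen together with antibodies against it. Each mouse had received 100 ug of type II collagen on day 0, 1 mg of a cocktail of antibodies against that collagen on day 21, and lipopolysaccharide (LPS) on day 22. Inflamed knees were taken in the effector phase, digested with Collagenase Type II and DNase I at 37 C and profiled by droplet single-cell RNA sequencing. The 3 libraries form 1 group, each pools the tissue of 2 mice (6 in all), and no untreated synovium was analysed here, so the comparisons below are between cell classes of the same arthritic joints.

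NF-kB subunits act as paired transcription factors that are held in the cytoplasm by IkB proteins. Ligands such as LPS, tumour necrosis factor and interleukin-1 activate IkB kinase, the IkB proteins are degraded, and the freed dimers enter the nucleus and switch on cytokine, chemokine and adhesion genes. The dimers also switch on genes of their own inhibitors, which closes a negative feedback loop. In inflamed synovium the pathway is best known from macrophages and fibroblasts, where it drives inflammatory mediators and matrix-degrading enzymes.

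The matrices held 11939, 11602 and 15263 barcodes, of which 36875 cells were analysed after filtering, with library totals of 99782608 to 116125712 UMIs. Cells were grouped by clustering and marker genes into classes that carry the ending "-like", since the names rest on RNA alone, and 13 classes had at least 20 cells in every library. The largest were the neutrophil-like (3771, 3783 and 3450 cells in replicates 1, 2 and 3), monocyte/macrophage-like (3569, 2772 and 5007) and fibroblast-like class (1739, 1652 and 3298), and the B cell-like, adipocyte-like and granulocyte/monocyte progenitor-like classes were small (24 to 77 cells a library). The defining markers followed the names in most classes: the summed level of the 7 neutrophil markers was 122699 CPM (counts scaled to 1000000) in neutrophil-like cells, 284804 in immature-neutrophil-like cells and 3310 in monocyte/macrophage-like cells, and the 7 fibroblast markers summed to 46003 in fibroblast-like cells. The 7 dendritic cell markers were weaker, at 661 CPM in dendritic-cell-like cells beside 467 in endothelial-like cells.

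Depth differed between classes, with a median of 1860, 1968 and 1546 UMIs per cell in the neutrophil-like class and of 5572 to 7342 in the monocyte/macrophage-like class. Levels are therefore given as CPM, the UMIs of a gene in a class of a library scaled to a total of 1000000 UMIs, and shares of positive cells are set beside the share expected if every cell held 1000 UMIs. RNA free in the suspension can also enter droplets. If all S100a8 and S100a9 UMIs outside the neutrophils (for neutrophils, all collagen UMIs) were such RNA, it made up at most 10.2 to 26.3% of the UMIs in most classes, 40.3 to 80.5% in progenitor-like cells, and up to 100% in B cell-like cells of replicate 3.

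Promoters are shown first, since NF-kB is known to act on promoters of its own inhibitors, and 7 of the 10 members have an entry in the RefSeq promoter table (build GRCm38.p6, 250 bases before to 50 after the start of the gene). The NF-kB consensus motif (kappa-B site) was searched on both strands, counting overlapping matches, and stands in capitals. It was present in a promoter of 5 of the 7 members, against 4.51% of all 32851 promoters of the same length and 5.14% of the 27025 genes in the table. The windows are printed 5′ to 3′ on the strand of the gene.
Rel, chr11:23770920-23771219, minus strand: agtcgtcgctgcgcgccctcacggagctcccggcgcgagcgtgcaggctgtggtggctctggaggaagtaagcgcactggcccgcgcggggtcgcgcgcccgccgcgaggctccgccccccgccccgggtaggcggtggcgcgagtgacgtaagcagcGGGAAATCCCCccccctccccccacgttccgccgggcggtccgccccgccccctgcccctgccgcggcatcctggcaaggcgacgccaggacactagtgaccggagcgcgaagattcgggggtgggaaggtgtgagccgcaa
Nfkb2, chr19:46304487-46304786, plus strand: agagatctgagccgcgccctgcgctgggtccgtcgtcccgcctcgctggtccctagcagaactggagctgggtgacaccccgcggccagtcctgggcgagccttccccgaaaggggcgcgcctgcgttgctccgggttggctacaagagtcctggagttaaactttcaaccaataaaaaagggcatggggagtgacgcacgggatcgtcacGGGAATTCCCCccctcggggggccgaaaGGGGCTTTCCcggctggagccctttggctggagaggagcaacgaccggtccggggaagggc
Nfkbia, chr12:55492598-55492897, minus strand: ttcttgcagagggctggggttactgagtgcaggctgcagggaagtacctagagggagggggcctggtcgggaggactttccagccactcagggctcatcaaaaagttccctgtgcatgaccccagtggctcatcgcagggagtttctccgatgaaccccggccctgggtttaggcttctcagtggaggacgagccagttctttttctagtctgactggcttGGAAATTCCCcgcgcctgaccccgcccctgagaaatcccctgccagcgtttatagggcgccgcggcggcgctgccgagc
Nfkbie, chr17:45555450-45555749, plus strand: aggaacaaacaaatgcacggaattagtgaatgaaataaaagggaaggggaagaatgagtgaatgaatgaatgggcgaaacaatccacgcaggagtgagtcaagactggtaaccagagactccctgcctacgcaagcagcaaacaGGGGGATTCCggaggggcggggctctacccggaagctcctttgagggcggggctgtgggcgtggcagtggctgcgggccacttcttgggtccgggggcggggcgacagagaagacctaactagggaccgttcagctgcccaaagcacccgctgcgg
Tnfaip3, chr10:19015361-19015660, minus strand: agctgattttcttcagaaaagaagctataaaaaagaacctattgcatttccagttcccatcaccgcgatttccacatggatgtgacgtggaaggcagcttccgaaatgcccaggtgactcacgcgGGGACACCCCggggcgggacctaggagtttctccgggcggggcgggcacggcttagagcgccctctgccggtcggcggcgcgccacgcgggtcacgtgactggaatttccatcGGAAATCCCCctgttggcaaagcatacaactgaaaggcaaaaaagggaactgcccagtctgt
Zfp36, chr7:28379179-28379478, minus strand: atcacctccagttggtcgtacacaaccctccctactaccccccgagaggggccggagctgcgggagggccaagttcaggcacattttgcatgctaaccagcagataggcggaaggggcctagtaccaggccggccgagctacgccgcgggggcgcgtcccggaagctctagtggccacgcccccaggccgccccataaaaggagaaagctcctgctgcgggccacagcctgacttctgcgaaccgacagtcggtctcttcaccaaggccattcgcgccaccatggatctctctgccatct
In this window the Rel promoter held 3 overlapping matches at 1 place, Nfkb2 4 matches at 2 places, Nfkbia and Nfkbie 1 match each and Tnfaip3 2. The table holds 2 further Nfkb2 windows, with 2 matches and 1, and a second Tnfaip3 window (chr10:19011914-19012213) with none. These 2 further Nfkb2 windows overlap, and the match of the latter is the same site as 1 of the 2 in the former. The Zfp36 window, and that of Rela (chr19:5637291-5637590), also held no match, which says only that those letters are not in these 300 bases. A match is a description of sequence, and binding was not measured. No window is shown for Nfkb1, Relb and Nfkbiz.

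Nfkb1 encodes the precursor of the p50 subunit, the most common partner in NF-kB dimers. Its level was 351, 396 and 477 CPM in T cell-like cells of replicates 1, 2 and 3 (mean 408 ± 63.9, SD, n = 3 libraries throughout), the highest of the 13 classes. B cell-like (327 ± 42.5), dendritic-cell-like (269 ± 20.9) and natural killer cell-like cells (245 ± 63.7) followed, and their libraries overlapped one another. A gap in which no libraries overlapped separated these lymphoid and dendritic classes from monocyte/macrophage-like (139 ± 15.1) and neutrophil-like cells (125 ± 20.6). Fibroblast-like cells had 42.8, 56.0 and 44.3 CPM, below every haematopoietic class among the 13, and adipocyte-like cells were lowest at 34.9 ± 3.91.

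Nfkb2 encodes the precursor that is cut to the p52 subunit in the alternative NF-kB pathway. It was highest in dendritic-cell-like cells, with 126, 121 and 117 CPM, and overlapped there with osteoclast-like cells (107 ± 17.0). T cell-like cells (98.4 ± 4.90) overlapped with osteoclast-like cells and lay above the monocyte/macrophage-like class (80.8 ± 4.5) in every library by CPM. That order depends on the scaling. In the edgeR comparison below, which is scaled otherwise, the log2 fold change was -0.16 ± 0.10 (SE), negative in 3 of 3 libraries and not called. Neutrophil-like cells had 43.3, 46.1 and 58.3, and immature-neutrophil-like cells were lowest with 22.4, 22.7 and 17.8. Fibroblast-like (49.4 ± 7.54), endothelial-like (56.6 ± 4.53) and pericyte/smooth-muscle-like cells (51.0 ± 8.61) could not be ordered among themselves.

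Relb, the subunit that pairs with p52, was also highest in dendritic-cell-like cells, at 124, 145 and 153 CPM, and there no other class overlapped. T cell-like cells had 66.3, 102 and 68.2, neutrophil-like cells 57.8, 56.5 and 70.9, and monocyte/macrophage-like cells 50.3, 57.1 and 54.9. These classes formed a run of overlapping neighbours. Immature-neutrophil-like cells were lowest, at 18.3 ± 4.80.

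Rel encodes c-Rel, a subunit known for its role in lymphocytes. B cell-like cells led with 229, 225 and 171 CPM, from only 33, 24 and 13 UMIs, and overlapped with no other class. Neutrophil-like cells were next with 107, 115 and 108, overlapping with dendritic-cell-like (97.5 ± 16.6) and T cell-like cells (93.1 ± 16.6). The stromal classes were far lower, with 11.8 ± 1.72 in fibroblast-like, 10.2 ± 1.52 in endothelial-like and 7.0 ± 7.85 in adipocyte-like cells. In fibroblast-like cells the mean was 1.75 times the most that free RNA could give.

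Rela encodes p65, the main activating subunit. It was the flattest member: the class means ran from 45.8 ± 11.5 CPM in progenitor-like cells to 89.1 ± 10.3 in neutrophil-like cells, a ratio of 1.94, and every class overlapped with its neighbours in the order. For comparison, the same ratio between the highest and lowest class was 11.7 for Nfkb1, 5.78 for Nfkb2, 7.66 for Relb and 29.8 for Rel.

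Nfkbia encodes IkB-alpha, the inhibitor that is degraded and resynthesised fastest in the NF-kB loop. Neutrophil-like cells held 3788, 3442 and 4124 CPM, and no library of any other class came near. Monocyte/macrophage-like (759, 763 and 844), dendritic-cell-like (777 ± 98.7) and osteoclast-like cells (776 ± 15.1) formed an overlapping middle, and fibroblast-like cells were lowest with 311, 294 and 356. At equal depth of 1000 UMIs per cell, 86.5% of neutrophil-like cells would hold a Nfkbia UMI, against 49.7% of monocyte/macrophage-like cells, whereas the shares as measured were 93.2% and 89.2%.

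Nfkbiz encodes IkB-zeta, an induced nuclear IkB protein that works with p50 at secondary response genes. Its level was 698, 752 and 851 CPM in neutrophil-like cells and 275, 284 and 279 in immature-neutrophil-like cells, with no overlap between them or with the monocyte/macrophage-like class (123, 133 and 163). Osteoclast-like cells were lowest, with 28.0, 19.7 and 19.4. The most that free RNA could give there was 21.8 CPM as a mean over libraries, close to these levels. Its largest possible share of UMIs was 12.8, 12.6 and 20.1% in replicates 1, 2 and 3. Set against the limit of its own library, only replicate 3 lay below.

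Zfp36 encodes tristetraprolin, which binds AU-rich elements and speeds the decay of cytokine mRNAs. Neutrophil-like cells held 1541, 1385 and 1466 CPM, above immature-neutrophil-like (483, 423 and 523) and monocyte/macrophage-like cells (311, 284 and 266) in every library. From T cell-like (126 ± 25.5) down to fibroblast-like cells (103 ± 21.9) the classes overlapped.

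Tnfaip3 encodes A20, a ubiquitin-editing enzyme that shuts off signalling upstream of IkB kinase. It had a pair of high classes: neutrophil-like cells with 189, 206 and 214 CPM and T cell-like cells with 146, 166 and 188. By CPM the lowest neutrophil-like library stood just above the highest T cell-like one. In the edgeR comparisons below, which are scaled otherwise, the log2 fold changes over monocyte/macrophage-like cells were 2.14 ± 0.08 (SE) and 1.07 ± 0.09, in that order. Natural killer cell-like cells (84.4 ± 19.6) and monocyte/macrophage-like cells (58.1 ± 3.06) were lower. The levels in fibroblast-like (11.5 ± 0.551) and endothelial-like cells (11.3 ± 2.57) compare with mean free RNA limits of 8.27 and 5.80 CPM.

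Nfkbie encodes IkB-epsilon, a slower IkB protein that damps late NF-kB activity. It was highest in dendritic-cell-like cells (77.1, 79.3 and 84.2 CPM), which stood above monocyte/macrophage-like cells (68.1, 66.5 and 64.0) in every library. Neutrophil-like cells held 40.3, 33.1 and 52.0, fibroblast-like cells 16.7, 16.5 and 16.5, and in adipocyte-like cells a single UMI was found in 1 of 3 libraries. Nfkbie was thus the only inhibitor of the 5 whose highest class was not the neutrophil-like one. By class, monocyte/macrophage-like cells gave 53.7% of all Nfkbie UMIs of a library and neutrophil-like cells 9.42%, whereas neutrophil-like cells gave 38.9% of all Nfkbia UMIs.

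**Figure D1:**
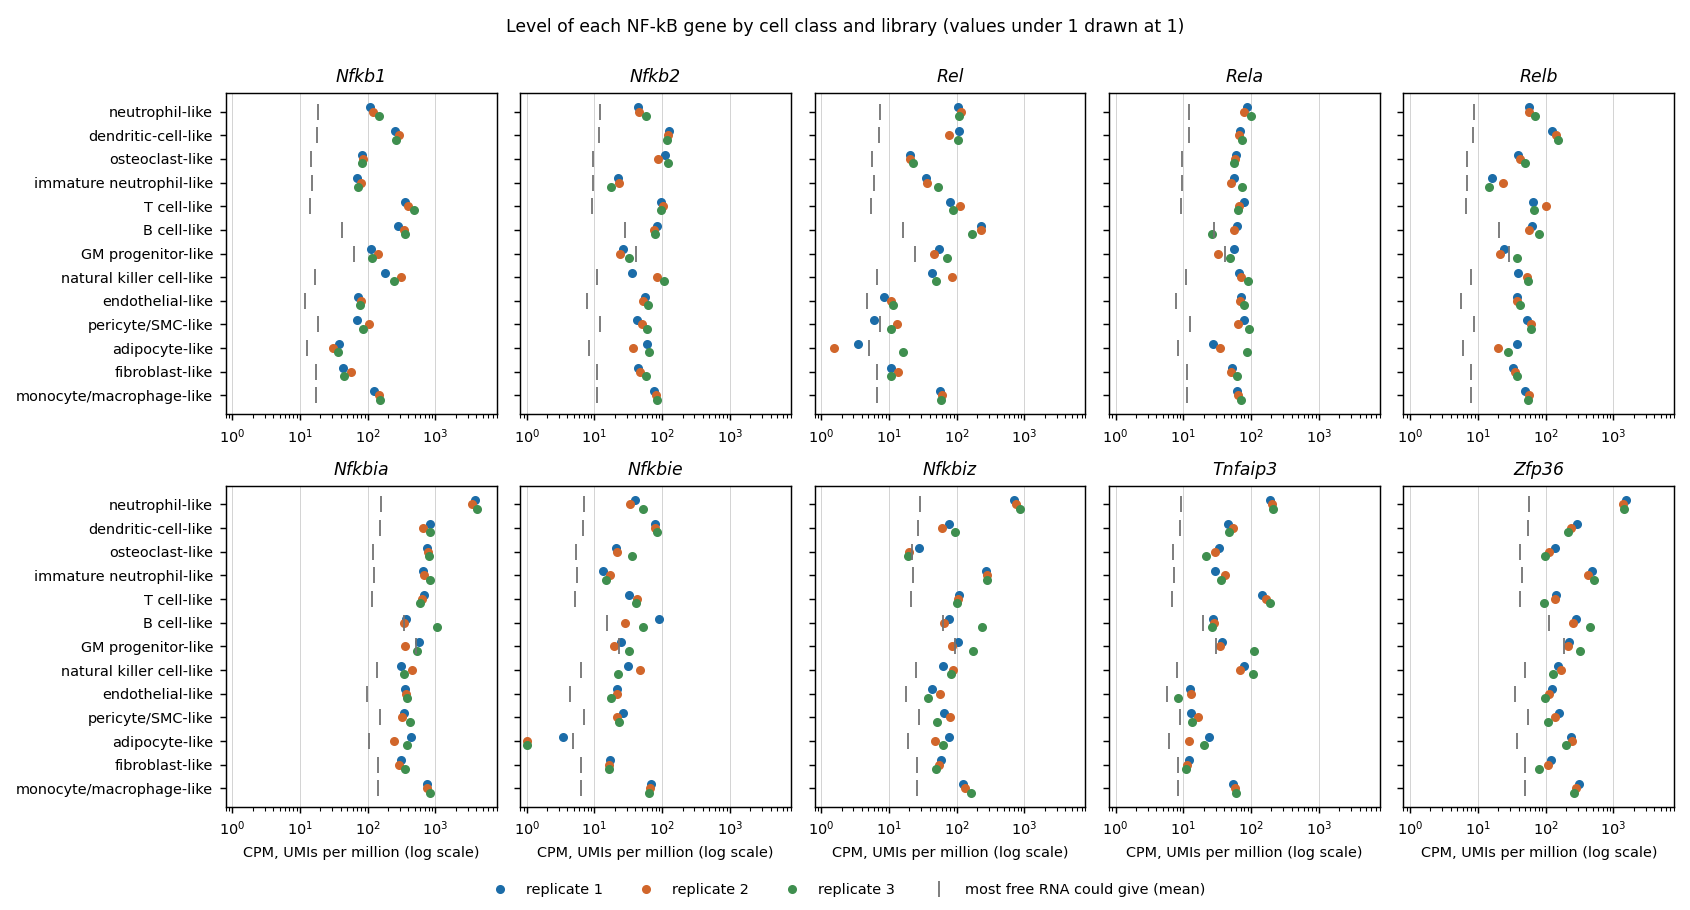
Level of each of the 10 genes (x axis, CPM, log scale) in 13 cell classes (rows), with 1 point per library and a grey mark at the mean level that free RNA could give at most (values under 1 are drawn at 1). In neutrophil-like cells Nfkbia lies at 3442 to 4124, apart from every other class, while Rela stays within 45.8 to 89.1 in all class means.

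The sum of the 5 inhibitors over the sum of the 5 subunits separated the granulocytes from the other classes. The ratio was 14.4 ± 0.893 in neutrophil-like and 7.14 ± 0.265 in immature-neutrophil-like cells, against 3.37 ± 0.203 in monocyte/macrophage-like, 2.56 ± 0.265 in fibroblast-like and 1.44 ± 0.182 in T cell-like cells. The ranges over libraries did not overlap between neutrophil-like cells (13.8 to 15.5) and immature-neutrophil-like cells (6.83 to 7.30). The ratio compares classes only, since transcript length is not taken into account between genes.

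Neutrophil-like cells were then compared with monocyte/macrophage-like cells, the 2 most abundant classes of the inflamed joint. Here 4 of the 5 inhibitors and 1 of the 5 subunits rose. In edgeR's quasi-likelihood test with Benjamini-Hochberg adjustment, called at an adjusted p under 0.05 and a change of at least 2-fold, the members called were 5 higher and 0 lower. Of all genes tested, 22.8% were called higher and 25% lower (47.8% in either direction).

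The log2 fold changes were 2.80 ± 0.08 (SE) for Nfkbiz (adjusted p = 3.08e-20), 2.69 ± 0.08 for Zfp36 (4.37e-20), 2.59 ± 0.09 for Nfkbia (2.85e-19), 2.14 ± 0.08 for Tnfaip3 (3.19e-18) and 1.24 ± 0.08 for Rel (1.62e-13), by edgeR, with the same sign in 3 of 3 libraries each. Nfkbie, the inhibitor left, went the other way below the threshold (-0.35 ± 0.09), as did Nfkb2 (-0.39 ± 0.08). Rela (0.77 ± 0.08), Relb (0.52 ± 0.08) and Nfkb1 (0.17 ± 0.08) were not called, and the plain mean of Nfkb1 was lower in neutrophil-like cells (125 ± 20.6 against 139 ± 15.1).

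The median over members was 1.0, beside -0.02 over all genes tested. The library values did not overlap for 8 members, against 76.1% of all genes. Class sums differ in make-up: scaling by library totals alone, chosen after the data were seen, moves the median of all genes by -0.34 in this comparison, and Rel (0.91) then stays under the 2-fold threshold while Nfkb1 turns to -0.16. The calls over all genes then split into 2406 higher and 4791 lower, against 3280 and 3604. Monocyte/macrophage-like cells serve 5 of the 7 comparisons, which are therefore not independent. P-values here and below come from 3 libraries of pooled mice, with the variance of each gene drawn by edgeR toward that of all genes tested. A very small p-value therefore does not rest on the spread of that gene between the libraries alone.

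Calls in the other pathway lists can be read beside the 22.8% of all genes called higher. Of 11 further IkB-family members and brakes, 5 rose and 0 fell, led by Nfkbid, which encodes the nuclear IkB-NS (3.50 ± 0.08). Of 20 kinases and adaptors, 3 rose and 0 fell, led by Irak2, an adaptor kinase of interleukin-1 and Toll-like receptors (3.04 ± 0.08). Of 19 target genes tested, 10 rose and 3 fell, with the neutrophil chemoattractant gene Cxcl2 (4.04 ± 0.11) and the co-stimulatory receptor gene Cd40 (-3.26 ± 0.15) at the ends.

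The 12 genes of the dissociation response, which tissue digestion is known to induce, moved too: 8 rose, with Dusp1 in the lead (3.12 ± 0.08), and 2 fell, with Hspa8 the lower (-1.63 ± 0.08). Their summed level was 9262 to 10628 CPM in neutrophil-like and 3767 to 4173 in monocyte/macrophage-like cells. Their part in the member changes was not tested.

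Fibroblast-like cells against monocyte/macrophage-like cells gave calls in the other direction, among subunits and inhibitors alike. Nfkbie and Nfkb2 had lower values in both comparisons. The members called were 0 higher and 7 lower, while 23.5% of all genes tested were called higher and 19.2% lower (42.7% in either direction). Tnfaip3 fell by 2.29 on the log2 scale (SE 0.08, adjusted p = 5.08e-11 by edgeR), with 12.1, 11.5 and 11 CPM in fibroblast-like cells, against 54.8, 58.8 and 60.8 in monocyte/macrophage-like cells. Rel fell by 2.28 (SE 0.08, adjusted p = 6.40e-11 by edgeR), with 10.9, 13.8 and 10.6 in fibroblast-like cells, against 56.6, 61.4 and 58.0 in monocyte/macrophage-like cells. None of these libraries overlapped.

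Nfkbie (-1.95 ± 0.08), Nfkb1 (-1.5 ± 0.08), Zfp36 (-1.45 ± 0.08), Nfkbiz (-1.29 ± 0.10) and Nfkbia (-1.26 ± 0.08) were also called. Nfkb2 (-0.67 ± 0.08), Relb (-0.57 ± 0.07) and Rela (-0.21 ± 0.07) had lower values but stayed under the 2-fold threshold. The median over members was -1.37, beside 0.02 over all genes, and all 10 members did not overlap between the classes, against 74.8% of all genes. With each cell gated on its own markers, Nfkbia (-0.94) and Nfkbiz (-0.98) fell short of 2-fold.

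Of the 11 further brakes 0 rose and 6 fell, including Nfkbid (-1.67 ± 0.09), and of the 20 kinases and adaptors 0 rose and 8 fell, Irak2 the most (-2.32 ± 0.08). The target genes were mixed, with 4 of 19 higher and 10 lower. Il6, the gene of a central arthritis cytokine, rose by 3.28 ± 0.13, with 35.1 ± 13.9 CPM in fibroblast-like cells, against 3.6 ± 0.815 in monocyte/macrophage-like cells. Cd83, a maturation marker of antigen-presenting cells, fell by 4.41 on the log2 scale (SE 0.15). In the dissociation list 0 rose and 6 of 12 fell, including Atf3 (-2.08 ± 0.07), at a summed level of 2129 to 2316 CPM in fibroblast-like cells, and their part was not tested.

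Endothelial-like cells, which line the vessels through which leukocytes enter the joint, were compared with fibroblast-like cells, and no member was called. By edgeR 4 of the 10 had an unadjusted p under 0.05, DESeq2 also called 0, and 12.8% of all genes tested were called higher and 17.2% lower (30% in either direction). Nfkb1 came closest, with 71.7, 79.5 and 77.8 CPM in endothelial-like cells, against 42.8, 56.0 and 44.3 in fibroblast-like cells (log2 fold change 0.49 ± 0.08, adjusted p = 4.96e-05 by edgeR), and the libraries did not overlap. The other 9 lay between -0.44 ± 0.10 (Nfkbiz) and 0.22 ± 0.07 (Rela). The library values did not overlap for 4 members, against 65.7% of all genes, and scaling by library totals shifts the median of all genes by 0.19.

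The target genes held most of the calls. Of 19 tested, 4 rose, with the leukocyte adhesion gene Sele (5.98 ± 0.19) in the lead, and 7 fell, with the neutrophil chemoattractant gene Cxcl1 the lowest (-3.85 ± 0.08). Among the brakes 0 rose and 1 fell, Zc3h12a, which encodes an mRNA-degrading enzyme (-1.52 ± 0.12). Among the kinases 0 rose and 1 fell, Ikbke (-2.59 ± 0.16), and in the dissociation list 0 rose and 1 fell, Hsp90aa1 (-1.11 ± 0.07).

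In T cell-like cells against monocyte/macrophage-like cells 2 members were called higher and 2 lower. Of all genes tested, 15.2% were called higher and 16.4% lower (31.6% in either direction), so the count of members is near the background. Nfkb1 rose, with 351, 396 and 477 CPM in T cell-like cells, against 122, 146 and 150 in monocyte/macrophage-like cells (log2 fold change 1.10 ± 0.07, adjusted p = 1.87e-09 by edgeR). Tnfaip3 rose by 1.07 ± 0.09 (adjusted p = 3.52e-08 by edgeR). Zfp36 fell by 1.64 on the log2 scale (SE 0.10, adjusted p = 4.40e-10 by edgeR) and Nfkbie by 1.24 (SE 0.13, adjusted p = 3.83e-07).

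The other 6 were not called, from -0.83 ± 0.11 (Nfkbiz) to 0.21 ± 0.11 (Rel). The scaling matters more here than in the other comparisons, since library totals shift the median of all genes by 0.44: the calls over all genes become 3344 higher and 1513 lower, against 2129 and 2297, Nfkbie stands at -0.80, no longer 2-fold, and Nfkb2 (0.29) and Rela (0.097) turn positive. With no filter on low counts, Nfkb1 (0.99) and Tnfaip3 (0.96) stop short of 2-fold. The median over members was -0.25, beside -0.04 over all genes, and 9 members did not overlap, against 64.7% of all genes.

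Of the further brakes 1 of 11 rose, Cyld, which encodes a deubiquitinase acting on the same signalling complexes as A20 (1.33 ± 0.11), and 1 fell, Tnip2 (-1.18 ± 0.19). Of the kinases 0 rose and 2 of 20 fell, including Irak3, an inhibitory member of its family (-1.39 ± 0.19). Of 18 target genes tested 2 rose and 11 fell: Csf2, which encodes the growth factor GM-CSF, rose by 7.61 ± 0.42, at 24.0 ± 5.68 CPM in T cell-like cells, against 0.0826 ± 0.0460 in monocyte/macrophage-like cells, and Cd40 fell by 4.13 on the log2 scale (SE 0.31). The dissociation list had 0 higher and 5 of 12 lower, including Atf3 (-2.43 ± 0.15), at 2785 to 3002 CPM in sum, and its part was not tested.

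Dendritic-cell-like cells against monocyte/macrophage-like cells gave 1 member higher and 0 lower, where 5.01% of all genes tested were called higher and 6.32% lower (11.3% in either direction). That member was Relb, with 124, 145 and 153 CPM in dendritic-cell-like cells, against 50.3, 57.1 and 54.9 in monocyte/macrophage-like cells (log2 fold change 1.28 ± 0.12, adjusted p = 1.18e-14 by edgeR). Nfkb1 (0.86 ± 0.10), Rel (0.62 ± 0.13) and Nfkb2 (0.50 ± 0.12) were higher in each library but under 2-fold, and Nfkbiz was lower in each (-0.96 ± 0.13). Nfkbiz passed 2-fold under 4 of the alternatives, among them without replicate 1 (-1.02) and with free RNA subtracted (-1.30).

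The kinase list held 1 gene that rose, Map3k14, which encodes the NF-kB-inducing kinase of the alternative pathway (1.70 ± 0.13), and 2 of 20 that fell, including Ikbke (-2.73 ± 0.33). Of 17 target genes tested 2 rose, led by the TNF receptor adaptor gene Traf1 (1.66 ± 0.11), and 7 fell, led by the monocyte chemoattractant gene Ccl2 (-2.47 ± 0.14). Among the 11 brakes edgeR called 0 in either direction, and the dissociation list had 0 higher and 1 lower, Fos (-1.0 ± 0.09). The median over members was 0.08, beside -0.07 over all genes, and 7 members did not overlap, against 35.9% of all genes.

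Osteoclast-like cells, the bone-resorbing cells that derive from the same lineage, were also set against monocyte/macrophage-like cells. The members called were 0 higher and 4 lower, while 11.3% of all genes tested were called higher and 18.3% lower (29.6% in either direction). Nfkbiz fell by 2.57 on the log2 scale (SE 0.13, adjusted p = 1.53e-52 by edgeR), with 28.0, 19.7 and 19.4 CPM in osteoclast-like cells, against 123, 133 and 163 in monocyte/macrophage-like cells. Rel (-1.49 ± 0.15), Nfkbie (-1.42 ± 0.14) and Zfp36 (-1.31 ± 0.09) also fell.

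Tnfaip3 lay just short of the threshold and was not called (-0.999 ± 0.136), while DESeq2 called it (-1.02). Nfkbia differed by less than the spread between libraries, at 776 ± 15.1 CPM in osteoclast-like cells and 789 ± 48.0 in monocyte/macrophage-like cells (log2 fold change -0.02 ± 0.08), and Nfkb2 had higher values in osteoclast-like cells (0.39 ± 0.10). The median over members was -0.86, beside -0.06 over all genes, and 9 members did not overlap, against 60.1% of all genes.

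Of the further brakes 0 rose and 3 of 11 fell, with Zfp36l1, a relative of Zfp36, the lowest (-2.14 ± 0.12). Of the kinases 0 rose and 7 of 20 fell, including Ikbke (-3.08 ± 0.26), and of 17 target genes tested 0 rose and 12 fell, including Ccl2 (-3.02 ± 0.13). The dissociation list had 1 of 12 higher, Hsp90aa1 (1.78 ± 0.08), and 9 lower, including Atf3 (-2.74 ± 0.15), at a summed level of 2423 to 2783 CPM in osteoclast-like cells, and its part was not tested.

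**Figure D2:**
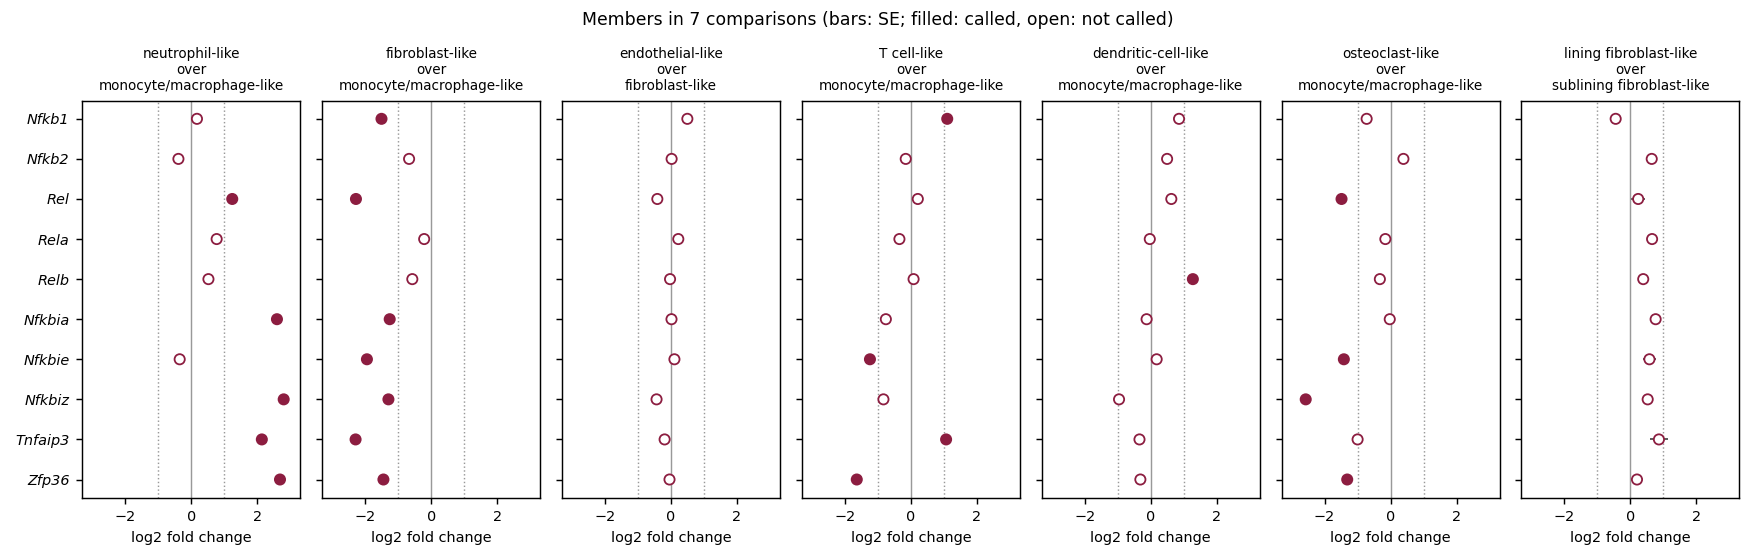
Log2 fold change (x axis, bars SE) of each of the 10 genes (rows) in the 7 comparisons (panels), filled where called and open where not, with dotted lines at 2-fold. Nfkbia, Nfkbiz, Tnfaip3 and Zfp36 lie at 2.14 to 2.80 in neutrophil-like over monocyte/macrophage-like cells, and 7 members lie at -1.26 or lower in fibroblast-like over monocyte/macrophage-like cells.

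Within the fibroblasts, lining-fibroblast-like cells, which face the joint cavity, were compared with sublining-fibroblast-like cells (721 and 231 cells at most in a library). By edgeR no member was called, 8 had an unadjusted p under 0.05, DESeq2 also called 0, and 5.26% of all genes tested were called higher and 12.5% lower (17.7% in either direction). Nfkbia had 376, 347 and 455 CPM in lining-fibroblast-like cells, against 227, 237 and 267 in sublining-fibroblast-like cells, without overlap (log2 fold change 0.76 ± 0.10, adjusted p = 1.53e-05 by edgeR). Rela (0.66 ± 0.12) and Nfkb2 (0.65 ± 0.13) were also higher in each library, and Nfkb1 was lower in each (-0.45 ± 0.13). Sublining-fibroblast-like cells also held more Malat1, a nuclear long noncoding RNA: it averaged 294 ± 54.4 CPM in lining-fibroblast-like cells, against 1536 ± 191 in sublining-fibroblast-like cells. Their Malat1-high sub-cluster had 89.1 CPM of Nfkb1 and the other one 23.8, against 42.2 and 42.7 in the lining sub-clusters, and the part of Malat1 was not tested. The Nfkb1 difference turned to 0.65 when clusters were cut at resolution 2.0 and to 0.035 with each cell gated on its own.

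Free RNA was close to these levels. As means over libraries it could give at most 189 of the 244 ± 20.6 CPM of Nfkbia in sublining-fibroblast-like cells. Its largest possible share of UMIs there was 26.2, 16.7 and 29.0% in replicates 1, 2 and 3. In replicate 1 it could give nearly all of the Nfkbia level. With it subtracted, Nfkbia (2.40) and Nfkbie (1.30) were called, and the Nfkbia change rests on a small remainder in replicate 1. Without replicate 2, Tnfaip3 (1.34) was called. The median over members was 0.55, beside 0.01 over all genes, and 6 members did not overlap, against 50% of all genes. Of 16 target genes tested 5 rose and 0 fell, led by Cxcl1 (3.94 ± 0.16), which had 431 ± 12.2 CPM in lining-fibroblast-like cells, against 28.4 ± 9.50 in sublining-fibroblast-like cells. Among the brakes 1 rose, Zc3h12a (1.81 ± 0.21), and 0 fell, among the kinases 0 rose and 1 fell, Map3k14 (-1.07 ± 0.18), and the dissociation list had 0 called.

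Neutrophil-like cells held 3 sub-classes named by their markers, which are described here without tests. Interferon-high, Ccl3-Ccl4 and Retnlg cells averaged 406, 716 and 603 of the 3668 neutrophil-like cells a library. The other sub-clusters took no sub-class name and had 3410 to 4291 CPM of Nfkbia, libraries summed. They included the highest Nfkbiz (895) and Zfp36 (1782) among the neutrophil-like sub-clusters. Interferon-high-neutrophil-like, Ccl3-Ccl4-neutrophil-like and Retnlg-neutrophil-like cells had 4892 ± 576, 5128 ± 164 and 1962 ± 118 CPM of Nfkbia. The Retnlg-neutrophil-like cells were below both others in every library, for Nfkbia and likewise for Tnfaip3 (298 ± 37.1, 254 ± 24.7 and 107 ± 8.66, in the same order) and Zfp36 (1689 ± 162, 1573 ± 143 and 1109 ± 21.4). Among the subunits Nfkb2 (84.7 ± 10.2, 70.0 ± 2.56 and 27.5 ± 4.70) and Relb (85.3 ± 3.47, 85.1 ± 8.91 and 39.3 ± 11.6) showed the same order of lowest. This was not particular to them. Summed over libraries, each Retnlg sub-cluster was below the interferon-high and Ccl3-Ccl4 ones for Nfkb1, Rel, Rela, Nfkbie and Nfkbiz too. The inhibitor over subunit ratio nevertheless stayed within 13.1 ± 0.242, 14.7 ± 0.676 and 13.4 ± 0.580.

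The dissociation genes summed to 10044 ± 884, 11896 ± 516 and 7606 ± 351 CPM in those 3 sub-classes, lowest where the inhibitors were lowest, and their part was not tested. Immature-neutrophil-like cells, the class named from markers of earlier stages, were lower still for Nfkbia (727 ± 97.4), Tnfaip3 (35.4 ± 5.64) and Zfp36 (476 ± 50.3).

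The monocyte/macrophage-like class held 5 sub-classes with different leading members. The order given is among these 5, since other sub-clusters of the class took no sub-class name. The largest of those (900 cells, libraries summed) had Nfkb1 at 265 CPM, Rel 138, Zfp36 444, Relb 89.1 and Nfkbie 87.5. The next (844 cells) had 56.0, 25.7, 216, 44.9 and 55.0 in the same order. Of the 5 sub-classes, infiltrating-monocyte-like cells had the most Nfkb1 (134, 171 and 194 CPM), Rel (66.7, 77.3 and 78.8) and Zfp36 (353, 366 and 359). Resident-macrophage-like cells had the least Nfkb1 (63.6, 85.7 and 78.6), Rel (22.2, 23.8 and 23.9), Nfkbia (369, 367 and 443) and Tnfaip3 (18.4, 20.9 and 23.1). For Nfkbia the resident-macrophage-like cells were below the other 4 sub-classes in every library.

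MHC-class-II-macrophage-like cells, which present antigen, had the most Relb (65.1 ± 9.17) and Nfkbie (78.6 ± 5.86) of the 5. Cycling cells of the class led the 5 for Nfkb2 (105 ± 13.9) but had the least Nfkbiz (34.5, 19.1 and 50.3 CPM). Spp1-Arg1-macrophage-like cells had the highest inhibitor over subunit ratio of the 5 (4.08 ± 0.223), and resident-macrophage-like cells the lowest (2.59 ± 0.316).

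**Figure D3:**
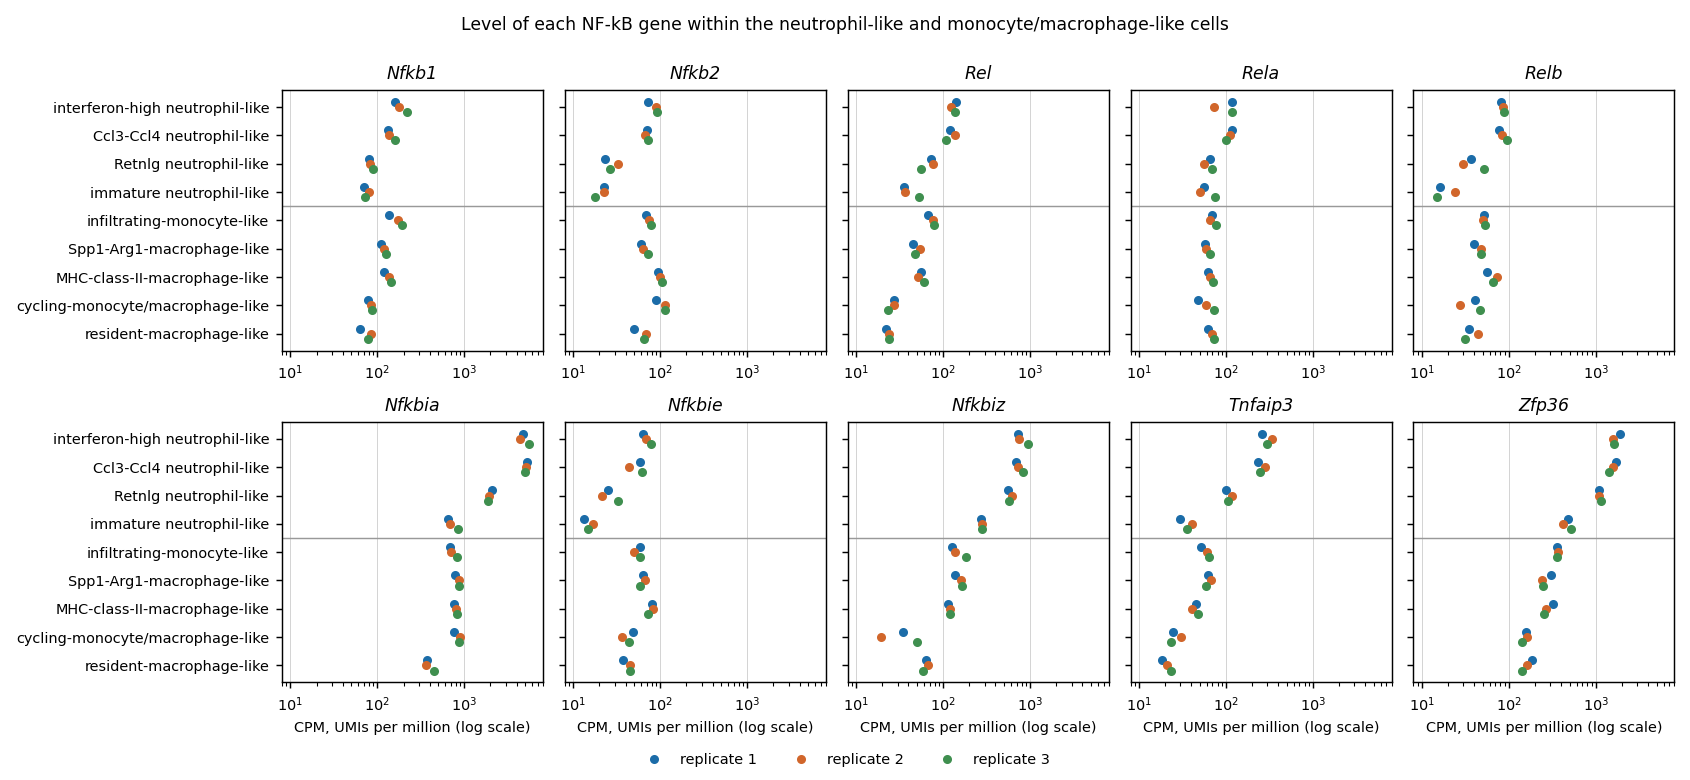
Level of each of the 10 genes (x axis, CPM, log scale) in 3 neutrophil-like sub-classes and immature-neutrophil-like cells (above the line) and in 5 monocyte/macrophage-like sub-classes (below it), 1 point per library. Nfkbia falls to a mean of 1962 in Retnlg-neutrophil-like and 727 in immature-neutrophil-like cells, and resident-macrophage-like cells hold the least Nfkbia, Rel and Tnfaip3 of the 5 monocyte/macrophage-like sub-classes.

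Several members followed the level of Malat1 among sub-clusters of a class. Across 13 fibroblast-like sub-clusters Nfkb1 ran from 23.8 to 126 CPM with a Pearson correlation of 0.97 to Malat1. Across 16 monocyte/macrophage-like sub-clusters the correlation was 0.87 for Nfkb1 and 0.86 for Rel, but 0.19 for Nfkb2 and -0.13 for Rela, and across 9 neutrophil-like sub-clusters it was 0.96 for Rel. The summed dissociation genes gave 0.92 for Zfp36, 0.83 for Tnfaip3, 0.81 for Rel and 0.74 for Nfkb1 in the monocyte/macrophage-like sub-clusters. Malat1 gave 0.45 for Zfp36 and 0.74 for Tnfaip3 there. With the dissociation genes Nfkbia stood at 0.86 in the neutrophil-like and 0.80 in the fibroblast-like sub-clusters, while Nfkb1 stood at only 0.19 in the fibroblast-like ones. In fibroblast-like sub-clusters Nfkb2 ran the opposite way to Malat1 (-0.69). These are descriptions: the sub-clusters share the 3 libraries, and they differ in depth.

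Pairs of sub-clusters with the same sub-class name and high or low Malat1, chosen after the values were seen, showed the size of this. In Spp1-Arg1-macrophage-like cells Nfkb1 was 210, 249 and 236 CPM in the Malat1-high sub-cluster, against 53.3, 44.0 and 53.1 in the Malat1-low one (log2 ratio 2.21, from 1.97 to 2.5 over libraries). Nfkbiz (2.41), Rel (2.16) and Tnfaip3 (1.97) were higher by similar amounts, while Nfkbia (0.65), Nfkb2 (0.49) and Rela (0.16) differed less. The pair are the sub-clusters with the most and the least Malat1 and come from different clusters. Summed over libraries, the third Spp1-Arg1 sub-cluster, from the same cluster as the Malat1-low one, was also high in Malat1 (5555 CPM). Its levels lay between those of the pair for Nfkb1 (146 CPM, against 51.9 and 230 in the Malat1-low and Malat1-high one). The same held for Nfkbiz (186, against 61.4 and 315) and Tnfaip3 (70.2, against 30.0 and 115). Its Nfkbia was 738 CPM, against 758 in the Malat1-low one. The Malat1-high cells were shallower, with a median of 6821.5, 6957 and 5178 UMIs per cell, against 9659, 10432 and 7524 in the Malat1-low cells, and had more dissociation genes, 4624 to 5394 CPM against 2842 to 3391. The part of either in the ratio was not tested.

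The other pairs differed from this one and among themselves. In infiltrating-monocyte-like cells Rel (1.27) and Nfkb1 (1.12) were higher in the Malat1-high sub-cluster in 3 of 3 libraries, whereas Nfkbia (-0.38), Nfkbie (-0.48) and Rela (-0.52) were lower in 3 of 3. Here the dissociation genes were not higher, at 4186 to 4524 CPM in Malat1-high cells, against 4400 to 5177 in Malat1-low cells. The part of these genes was not tested. Summed over libraries, the third infiltrating-monocyte-like sub-cluster was also high in Malat1 (4406 CPM). Its Nfkbia (780 CPM), Nfkbie (68.4) and Rela (73.0) compare with 771, 56.2 and 77.9 in the Malat1-low one. The Malat1-high one of the pair had 601, 39.0 and 55.4. For Nfkb1 (202 against 199) and Rel (89.3 against 93.1) the third was close to the Malat1-high one. In MHC-class-II-macrophage-like cells Rel (1.04), Relb (1.03) and Nfkb1 (0.87) were higher in 3 of 3 libraries. Nfkbia (-0.13), Rela (-0.18) and Zfp36 (-0.23) were lower in 3 of 3, while Tnfaip3 (0.20) differed little. The pair come from different clusters. Another sub-cluster of this sub-class, from the cluster of the Malat1-high one, was also low in Malat1 (793 CPM, libraries summed). Its Nfkbia (723 CPM), Rela (64.2) and Tnfaip3 (28.1) compare with 806, 63.7 and 56.2 in the Malat1-high one. The Nfkbia, Rela and Tnfaip3 results therefore depend on the Malat1-low sub-cluster chosen. Rel, Relb and Nfkb1 were lower there than in the Malat1-high one and Zfp36 was higher, as in the pair. In Retnlg-neutrophil-like cells Relb (1.56), Rel (1.45) and Nfkb1 (1.36) were higher in 3 of 3, and Rela (-0.10) was higher in only 1. The inhibitors were higher in 3 of 3 there as well, with Nfkbiz and Tnfaip3 at 0.97, Nfkbia at 0.57, Nfkbie at 0.50 and Zfp36 at 0.43. In this pair the dissociation genes were higher in every library, at 7523 to 8593 CPM in Malat1-high cells, against 5974 to 6005 in Malat1-low cells, and the Malat1-high cells were the deeper ones, with a median of 1877 to 2872 UMIs, against 1757 to 1962. The part of either was not tested.

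**Figure D4:**
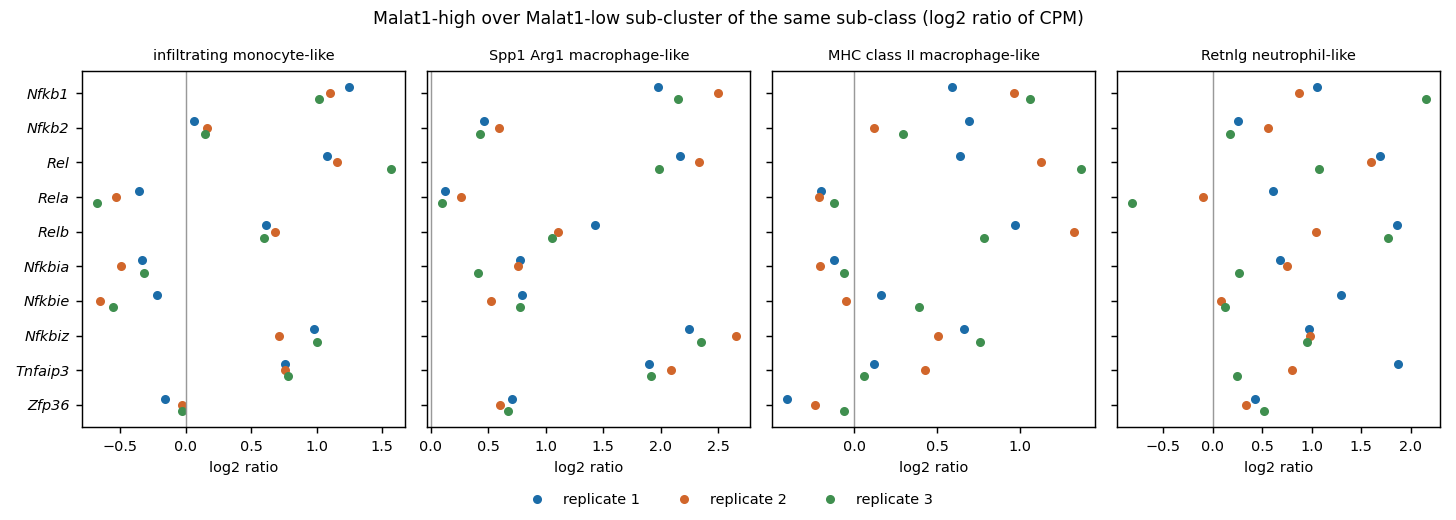
Log2 ratio (x axis) of CPM between the Malat1-high and the Malat1-low sub-cluster of the same sub-class for each of the 10 genes (rows), 1 point per library, in 4 sub-classes (panels). Nfkb1 and Rel are above 0 in every library of all 4 panels, and Rela is above 0 in all 3 libraries in only 1 of them.

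Members also resembled one another to different degrees over the 13 classes, as correlations of log2(CPM + 1) that carry no p. Nfkbiz and Zfp36 had the highest correlation (0.91), followed by Nfkb1 and Rel (0.85), Nfkbia and Zfp36 (0.82) and Nfkb2 and Relb (0.80), the pair of the alternative pathway. Nfkb2 and Nfkbiz ran most against each other (-0.42). Points share libraries and differ in depth and cell number.

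Among 6560 other genes with at least 50 CPM in 1 class, the patterns most like each member over the 13 classes were as follows. Zfp36 was most like Gk (0.96), Csf3r (0.95) and Cxcl2 (0.94), Nfkbia like Junb (0.94) and Nfkbiz like Tmcc1 (0.95) and Klf6 (0.94). Tnfaip3 was most like Fyb (0.92), Batf and Tnfrsf1b, and Nfkbie like Ap1g1 (0.91). Among the subunits Rel was most like Dapp1 (0.97) and Cytip (0.96), Nfkb1 like Wnk1 (0.95), Nfkb2 like Zmiz2 (0.88), Rela like D17Wsu92e (0.88) and Relb like Phlpp1 (0.84).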

How the data were processed

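Single-cell RNA was captured with the DNBelab C system. The deposited values are whole UMI counts for each gene in each cell, made with PISA 1.0 per the file headers, and the submitters' processing notes name GRCm39 and Seurat 3.0.2. The labels state 11111, 10668 and 14363 cells, fewer than the barcodes in the matrices. From 38804 barcodes, 82 were left out on quality (under 200 genes or over 20% mitochondrial UMIs) and 1847 as doublets (Scrublet score of at least 0.2, 4.10, 3.95 and 5.91% of the libraries). The lowest barcode held 1000 UMIs. Barcode names are running names and say nothing of shared cells.

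Cells were clustered (scanpy 1.11.5, leidenalg 0.10.2, 2000 variable genes without the members and pathway genes, 30 components, resolution 1.0) into 23 clusters and 90 sub-clusters. A sub-cluster took a class name when at least 3 markers and 70% of a list were in at least 10% of its cells at 2-fold or more. If no gate was passed, a lower share of the monocyte/macrophage list was enough where at least 3 infiltrating monocyte markers passed. The Malat1-high infiltrating-monocyte-like sub-cluster (926 cells) was named this way. Cells left unnamed numbered 448, 582 and 562. Sub-clusters that passed 2 or more gates (464, 521 and 761 cells) were left out of all classes, and their Nfkbia ran from 334 to 1798 CPM. When each cell was gated on its own markers, 33419 cells passed and 438 of them had exactly 3 markers.

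UMIs were summed per library and class (at least 20 cells) and tested with edgeR 4.0.16 (R 4.3.3, quasi-likelihood, TMM, filterByExpr, the library as a block). The block pairs the class sums of 1 library, which come from the same 2 pooled mice. P-values were adjusted over all genes tested, and the SE by edgeR is the absolute log2 fold change divided by the square root of the F statistic. DESeq2 1.42.0 and other settings were alternatives. On simulated data 99.5% of 200 changed genes among 14143 were recovered for neutrophil-like over monocyte/macrophage-like cells. For lining- over sublining-fibroblast-like cells 96.5% were recovered among 12136 genes. The planted changes all lay above the 2-fold threshold, in genes that were not low, with the same fixed spread for every gene. Recovery of changes near the threshold, or of genes with few UMIs, was therefore not measured.

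All 10 members are named. From each pathway list (11 other IkB-family members and brakes, 20 kinases and adaptors, 20 target genes, 12 dissociation genes) the called gene with the largest change in each direction is named, if it moved that way in 3 of 3 libraries and had at least 10 CPM in the higher class. For likeness the 3 genes with the highest correlation were taken for each member. The members, lists and tests were chosen with earlier results of these data known. Sub-class values carry no test, and depth and free RNA limits cover counting only.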

Additional observations from a re-analysis of the deposited data

How the results depend on the processing

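The number of members called ran over the alternatives from 4 to 6 for neutrophil-like, 5 to 7 for fibroblast-like, 2 to 5 for T cell-like, 1 to 2 for dendritic-cell-like and 4 to 5 for osteoclast-like over monocyte/macrophage-like cells, and from 0 to 0 for endothelial-like over fibroblast-like and 0 to 2 for lining- over sublining-fibroblast-like cells. Without the library as a replicate block (no pairing), the members called numbered 5, 7, 0, 4, 1, 4 and 0 in the order of the report, as with it, and the genes called 6539, 6406, 4160, 4312, 1491, 3831 and 2050. Counts that moved by over 1.5 times were the genes called with each cell gated on its own (3771 for neutrophil-like over monocyte/macrophage-like and 596 for lining over sublining) and with cells thinned to 1000 UMIs (2749 for endothelial-like, 870 for dendritic-cell-like, 2059 for osteoclast-like and 806 for lining). Members called moved to 2 with no filter for T cell-like, to 2 with no filter, free RNA subtracted or thinning for dendritic-cell-like, and to 2 with free RNA subtracted for lining cells. Leaving out 1 library at a time, the members called ran from 1 to 2 for dendritic-cell-like over monocyte/macrophage-like cells (2 without replicate 1, where Nfkbiz joined), from 4 to 5 for osteoclast-like cells and from 0 to 1 for lining cells (1 without replicate 2, Tnfaip3), and did not move in the other 4 comparisons. The cause of these moves was not tested.

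Signs changed for 35 values of members. For neutrophil-like over monocyte/macrophage-like cells, Nfkb1 stood at -0.055 with no filter and -0.16 with totals. For endothelial-like over fibroblast-like cells, Nfkb2 stood at -0.028 with no filter, -0.0018 with doublets kept, -0.032 with each cell gated, -0.014 with free RNA subtracted, -0.19 thinned and from -0.050 (without replicate 1) to 0.097 with 1 library left out. In the same comparison, Nfkbia stood at -0.032 with no filter, -0.082 with each cell gated and from -0.079 (without replicate 2) to 0.088 with 1 library left out, and Relb at 0.16 with totals and 0.11 thinned. Zfp36 stood at 0.14 with totals, 0.26 with free RNA subtracted and from -0.11 to 0.020 (without replicate 1), Nfkbie at -0.30 with each cell gated and Tnfaip3 at 0.35 with free RNA subtracted. For T cell-like cells, Relb stood at -0.026 with no filter and from -0.11 (without replicate 2) to 0.23, and totals gave Nfkb2 0.29 and Rela 0.097. For dendritic-cell-like cells, Rela stood at 0.041 by DESeq2, 0.067 with totals, 0.0078 in 1 fit over all classes and from -0.049 to 0.037 (positive without replicates 2 and 3), and thinning gave Nfkbia 0.027 and Nfkbie -0.12. For osteoclast-like cells, Nfkbia stood at 0.014 in 1 fit over all classes and from -0.054 to 0.021 (without replicate 3). For lining over sublining cells, Nfkb1 stood at 0.65 at resolution 2.0 and 0.035 with each cell gated, Nfkbie at -0.064 with each cell gated and Zfp36 at -0.015 thinned.

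With 3 libraries of pooled mice and no untreated group, the values describe classes within arthritic joints. The dendritic-cell-like class was not found at resolution 2.0, with doublets kept or with each cell gated, and the osteoclast-like comparison could not be fitted with each cell gated. B cell-like, adipocyte-like and progenitor-like levels rest on few cells, and 13 to 33 UMIs a library stand behind the B cell-like Rel level.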
